A study of Homo sapiens with 3 samples.

Results

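ISG20 and the 2′-5′-oligoadenylate synthetase family, made up of OAS1, OAS2, OAS3 and the related OASL, were followed in FaDu cells exposed to NSC-631570. They are 5 of 18132 genes named on the arrays. The members were chosen with results of these arrays known, ISG20 because it was among the genes furthest above both untreated arrays, so their values are given as a description and without a test. All probe sets that named exactly 1 gene, that gene being a member, were taken, which gave 12 of 49395 probe sets. Of these, 1 belonged to ISG20, 4 to OAS1, 5 to OAS2, 1 to OAS3 and 1 to OASL. NSC-631570 is an extract of greater celandine (Chelidonium majus), and FaDu is a long-established cell line grown from a squamous tumour of the human hypopharynx. The treated group was 1 array of cells kept for 48 h in medium that held 10 µg/ml of it, the EC50 dose per the submitters. The untreated group was 2 arrays of cells given the same volume of distilled water, and all cells grew in RPMI medium with fetal calf serum and antibiotics. Total RNA was hybridised to Affymetrix PrimeView arrays, and all signals are on a log2 scale, so that a difference of 1 is a 2-fold difference. Each group came from 1 cell line, the treated group has no replicate, and the labels do not say whether the untreated arrays came from separate cultures, so any spread between them may be technical.

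OAS1, OAS2 and OAS3 bind double-stranded RNA and then join ATP into short chains with 2′-5′ bonds, called 2-5A. These chains act as a second messenger of the antiviral response that leads to the cutting of viral and cellular RNA. OASL has the same fold with ubiquitin-like domains at its end, makes no 2-5A in humans, and is known to strengthen signalling from the RNA sensor RIG-I. ISG20 is a 3′-5′ exoribonuclease that degrades single-stranded RNA. All are classical interferon-stimulated genes, whose promoters are read by the ISGF3 complex and by IRF factors at repeats of the letters GAAA.

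The promoters of 3 members were at hand in RefSeq (build GRCh38.p14) and are shown because they hold letter matches to such GAAA repeats. Whether these matches respond to interferon was not tested. Each window runs from 250 bases before to 50 bases after the start of transcription and is 300 bases long. Lines give the plus strand, 5′ to 3′, of chr15:88638766-88639065 for ISG20, chr12:112906712-112907011 for OAS1 and chr12:112938224-112938523 for OAS3. Capitals mark matches to the core of the interferon-stimulated response element, taken here as GAAA, any 2 bases and GAAA again, or to the same repeat with any 1 base between, GAAANGAAA.
ISG20: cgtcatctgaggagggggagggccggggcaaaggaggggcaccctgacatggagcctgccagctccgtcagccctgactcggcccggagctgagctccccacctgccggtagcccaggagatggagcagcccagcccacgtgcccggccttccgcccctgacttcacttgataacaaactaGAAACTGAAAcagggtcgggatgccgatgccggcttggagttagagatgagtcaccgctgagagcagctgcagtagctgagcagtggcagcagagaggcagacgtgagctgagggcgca
OAS1: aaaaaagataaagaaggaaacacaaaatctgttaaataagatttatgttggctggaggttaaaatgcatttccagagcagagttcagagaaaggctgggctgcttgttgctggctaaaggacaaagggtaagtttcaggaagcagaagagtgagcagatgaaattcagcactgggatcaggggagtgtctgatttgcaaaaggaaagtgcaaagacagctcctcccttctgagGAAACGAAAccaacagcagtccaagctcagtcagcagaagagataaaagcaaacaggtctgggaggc
OAS3: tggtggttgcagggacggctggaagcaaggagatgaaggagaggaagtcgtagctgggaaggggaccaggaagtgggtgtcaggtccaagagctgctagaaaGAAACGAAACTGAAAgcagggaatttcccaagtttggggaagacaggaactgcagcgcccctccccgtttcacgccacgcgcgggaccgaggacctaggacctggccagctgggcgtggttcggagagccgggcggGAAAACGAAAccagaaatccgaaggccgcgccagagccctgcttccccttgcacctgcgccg

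Both motifs were searched on both strands. The repeat with 2 bases between was found once in the ISG20 window, as GAAACTGAAA from 69 to 60 bases before the start. OAS3 held it at 2 places, with the first base 143 and 12 bases before the start. OAS1 had no match to it but held GAAACGAAA, with 1 base between the repeats, 17 to 9 bases before the start. In OAS3 a match to that shorter form overlapped the farther of these matches by 4 bases. Of 35116 promoter windows in the RefSeq table, 3.57% held the repeat with 2 bases between and 3.12% held GAAANGAAA. The shorter form was added after the sequences had been seen. TTCNNNGAA, the gamma-activated site of interferon gamma signalling, was found in OAS1 only, with its first base 168 bases before the start, and 7.66% of all windows held it. GCGTG, the core bound by the aryl hydrocarbon receptor, had 3 matches in OAS3, and 36.5% of all windows held at least 1. GCGTG did not occur on either strand of the ISG20 and OAS1 windows.

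**Figure D1:**
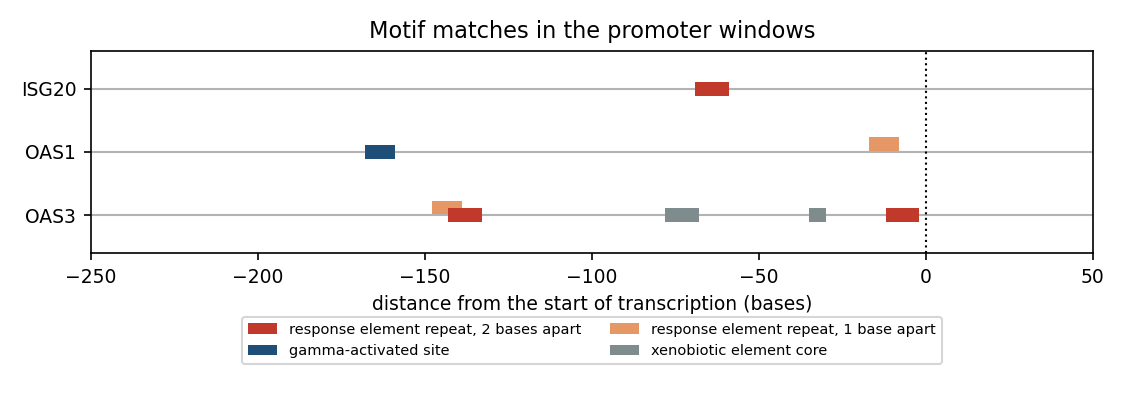
Motif matches in the promoter windows of ISG20, OAS1 and OAS3, drawn by distance from the start of transcription in bases, with matches on either strand. ISG20 holds 1 repeat with 2 bases between, OAS1 holds 1 repeat with 1 base between, and OAS3 holds 2 and 1 of these.

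The array medians were 6.55 in the treated array, against 6.62 and 6.57 in untreated 1 and untreated 2. Genes were tested by their brightest probe set if its mean over the arrays reached 5.85, the 40th percentile of all probe sets, which left 11932 genes. By limma with Benjamini-Hochberg adjustment 5 genes were higher and 3 lower in the treated array, 0.0419% and 0.0251% of those tested. That split was 3 and 1 after quantile normalisation, 111 and 25 with each array centred on the median of all probe sets, and 21 and 29 with it centred on the median of the tested genes. The median tested gene stood 0.12 above the untreated mean, and −0.08 from it with that last centring, so list medians are to be read against that shift. In the treated array the 5′ control probe set of ACTB read 12.23, against 13.61 and 13.60 in the untreated arrays, while its 3′ set read 14.40, against 14.19 and 14.21. The part of this difference in the results below was not tested. Squamous markers were present, with KRT5 at 12.91 in the treated array and 13.21 and 13.39 in the untreated ones. This KRT5 probe set differed by −0.39 from the untreated mean, and its other probe set past the filter by −2.30. The tested squamous markers had no common direction, with KRT14 at a difference of 0.95 and PKP1 at 0.94. Among leukocyte markers PTPRC read 3.78, against 3.72 and 3.71, whereas CD14 was past the filter at 7.42, against 7.03 and 6.17, and CD79A at 6.94, against 7.07 and 6.93. The part of these markers in the results was not tested. Of the markers looked for, 7 of 10 squamous ones were named and passed the filter, as did 3 of 7 named leukocyte, 2 of 6 fibroblast and 3 of 4 endothelial ones.

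ISG20 had the largest difference of the members. Its only probe set, 11756806_a_at, read 10.06 in the treated array, against 7.62 in untreated 1 and 7.68 in untreated 2. The untreated arrays lay 0.05 apart and the treated array 2.38 above the nearer of them. On the linear scale the signal was 5.30-fold that of the untreated mean, 5.40-fold that of untreated 1 and 5.20-fold that of untreated 2. Among 11932 tested genes only 3 had a larger difference from the untreated mean, and by the distance above the nearer untreated array ISG20 ranked 2. With bulk RNA, a higher level in each cell and a larger share of cells with a high level cannot be told apart.

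OAS1, the smallest synthetase of the family, was read by 4 probe sets that agreed in direction. The brightest, 11724255_a_at, read 7.93 in the treated array, against 7.13 in untreated 1 and 6.62 in untreated 2, a difference of 1.06 from the untreated mean or 2.08-fold. A second, 11740891_a_at, gave nearly the same values, 7.79 in the treated array against 7.11 and 6.61 in the untreated ones. The treated array was thus the highest of the 3 and untreated 2 the lowest.

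The other probe sets of OAS1 gave larger differences and also larger gaps between the untreated arrays. 11719588_a_at read 8.18 in the treated array, against 7.20 and 5.93 in the untreated arrays. 11724256_s_at read 7.39 in the treated array, against 6.63 and 5.44 in the untreated arrays. In both, the untreated arrays were further apart (1.28 and 1.19) than the treated array was above untreated 1 (0.97 and 0.76). Over the 4 probe sets the difference from the untreated mean ran from 0.93 to 1.61, with a median of 1.21, and none stood 2-fold above both untreated arrays.

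OAS2, which carries a pair of synthetase units in 1 chain, gave the widest range within a gene. The treated array was above both untreated arrays in all 5 probe sets, by a difference from the untreated mean of between 0.32 and 1.91. The upper end is that of 11726201_a_at, and without that probe set the range ends at 1.44. The probe set that represents the gene in the fit over all genes, 11736136_s_at, showed the smallest difference, with 7.46 in the treated array against 7.20 and 7.09 in the untreated arrays. Others past the filter stood much further apart. 11726778_at read 7.40 in the treated array, against 6.23 and 5.69 in the untreated arrays, a 2.72-fold difference from their mean. 11726201_a_at read 7.39 in the treated array, against 6.16 and 4.80 in the untreated arrays, whose mean of 5.48 was below the filter. It thus passed only through the treated array, and its difference of 1.91 from the untreated mean is given with that limit. Both stood at least 2-fold above both untreated arrays, but in 11726201_a_at the untreated arrays themselves were 1.35 apart.

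The remaining OAS2 probe sets lay below the filter. 11736134_a_at read 5.08 in the treated array, against 4.88 and 4.47 in the untreated arrays, and 11736135_at read 4.82, against 4.13 and 4.10. No detection call was made, so these readings were not shown to be above background. The 2 OAS2 probe sets annotated with a RefSeq transcript of the gene were those with differences of 1.44 and 1.91. The latter passed the filter only through the treated array. The 3 with other accessions differed by 0.32 to 0.70. In OAS1 the same division gave overlapping ranges, 1.06 to 1.35 for RefSeq transcripts and 0.93 to 1.61 for the rest.

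OAS3, the synthetase with 3 units in 1 chain, was the only member whose single-gene probe set was not higher in the treated array. That probe set, 11723700_at, read 6.70 in the treated array, against 7.44 in untreated 1 and 6.72 in untreated 2. The treated array lay 0.02 below the nearer untreated array and the untreated arrays were 0.72 apart, so the difference was within their spread. A pair of further probe sets named both OAS2 and OAS3 and fell outside the rule for members. In the platform annotation both carry the accession of a RefSeq transcript of OAS3. 11723698_a_at read 9.96 in the treated array, against 9.16 and 8.69 in the untreated arrays, and 11723699_s_at read 11.50, against 10.88 and 10.37. Their differences from the untreated mean were 1.04 and 0.88, the opposite sign to the −0.38 of the single-gene probe set, and the treated array was the highest of the 3 in both. In the treated array both read above every single-gene probe set of OAS2, the highest at 7.46, and above the 6.70 of OAS3. Their accession names OAS3, but which of the 2 genes these signals come from was not tested. The direction of OAS3 thus depends on the probe set taken.

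OASL had 1 probe set, 11726364_x_at, whose name marks probes that may also bind other sequences. It read 12.82 in the treated array, against 11.57 in untreated 1 and 11.58 in untreated 2. The untreated arrays agreed within 0.01, the difference from their mean was 1.25, and the signal was 2.38-fold theirs. OASL stood 1.25 above the nearer untreated array, which ranked 34 among the tested genes.

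**Figure D2:**
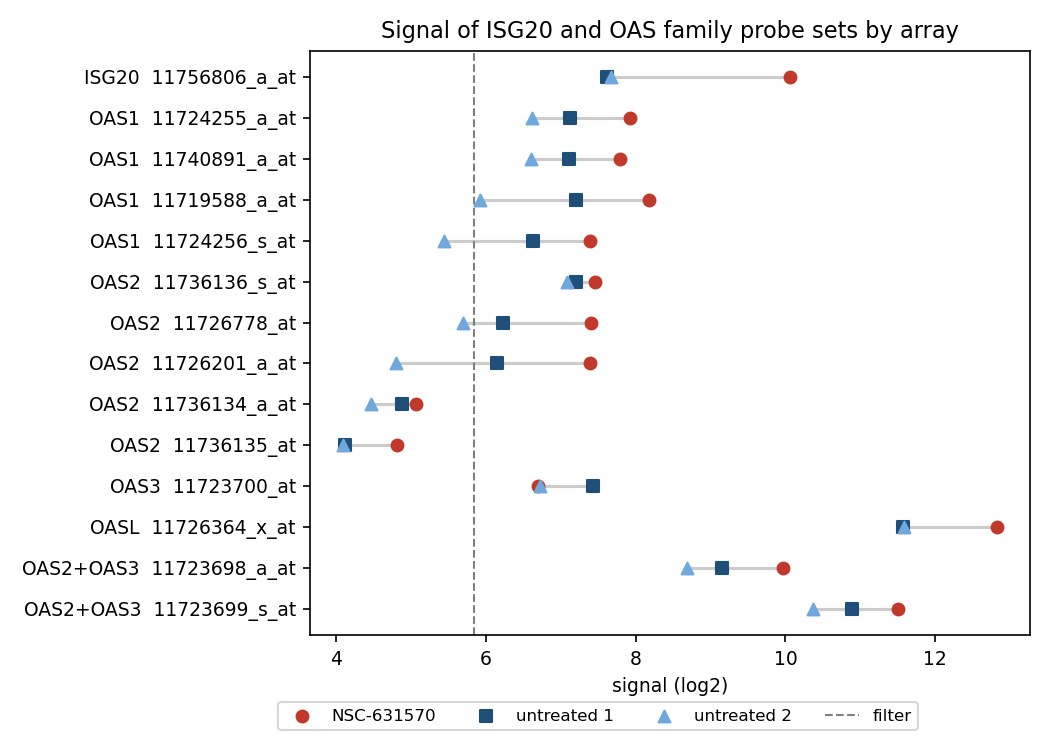
Log2 signal of each ISG20 and OAS family probe set in the treated array and in untreated 1 and untreated 2, with the filter at 5.85 as a dashed line. The treated array is the highest of the 3 in every probe set but 11723700_at of OAS3.

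Across the members, the treated array was above both untreated arrays in 11 of 12 probe sets and below both in 1, where 38.7% of all 44988 single-gene probe sets were above and 33.3% below both. At least 2-fold above both were 4 of 12 (ISG20, OASL and 2 of OAS2, of which 11726201_a_at passed the filter only through the treated array), against 0.445% of all single-gene probe sets. Taken by the brightest probe set of each gene, 4 of 5 members were above both, where 51.6% of tested genes were, and 2 of 5 were 2-fold above both, where 0.88% were. Over all tested genes 105 were 2-fold above both and 28 below, a split of 44 and 59 with arrays centred on the median of the tested genes. The members were picked from this contrast, so nothing is read from these shares. In 7 of 12 probe sets the treated array stood above both untreated arrays by more than their gap, against 21.7% of all single-gene probe sets. The median difference of the 12 was 1.15, beside 0.02 for all single-gene probe sets.

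The members fell apart in how far the untreated arrays differed. Untreated 1 was above untreated 2 in all 9 probe sets of OAS1 and OAS2 and in that of OAS3, 10 of 12 in all, where 56.7% of single-gene probe sets ran that way. In ISG20 and OASL the untreated arrays were within 0.05 and 0.01 of each other. The untreated arrays were at least 2-fold apart in 3 of 12 probe sets, 2 of OAS1 and 1 of OAS2, and in 0.958% of all single-gene probe sets. Set against untreated 1 alone, OAS1 differed by 0.80, OAS2 by 0.26 and OAS3 by −0.74 on their brightest probe sets. Set against untreated 2 alone, the same probe sets differed by 1.31, 0.37 and −0.02.

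**Figure D3:**
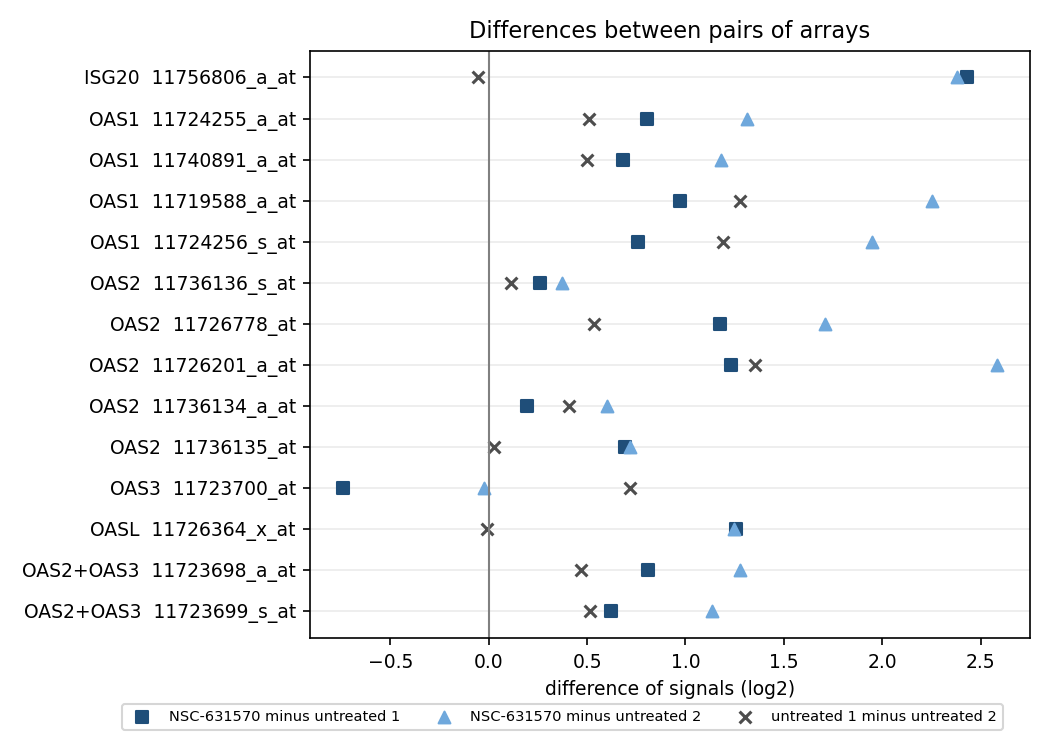
Log2 differences for each probe set between the treated array and untreated 1, between the treated array and untreated 2, and between untreated 1 and untreated 2. ISG20 and OASL lie far above 0 in the first pair of differences and near 0 in the last, whereas in 11719588_a_at of OAS1 the untreated arrays are 1.28 apart.

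Placed among all tested genes by their brightest single-gene probe sets, the members spread over most of the distribution. OASL ranked 84, OAS1 189, OAS2 3256 and OAS3 11352 of 11932 by difference from the untreated mean, and ISG20 ranked 4. Measured from the median tested gene, ISG20 stood at 2.29, OASL at 1.13, OAS1 at 0.94, OAS2 at 0.20 and OAS3 at −0.50. The places of OAS2 and OAS3 depend on the probe set taken. The 2 other OAS2 probe sets past the filter, 1 of them only through the treated array, differed by 1.44 and 1.91. The 2 probe sets shared by OAS2 and OAS3 differed by 1.04 and 0.88.

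**Figure D4:**
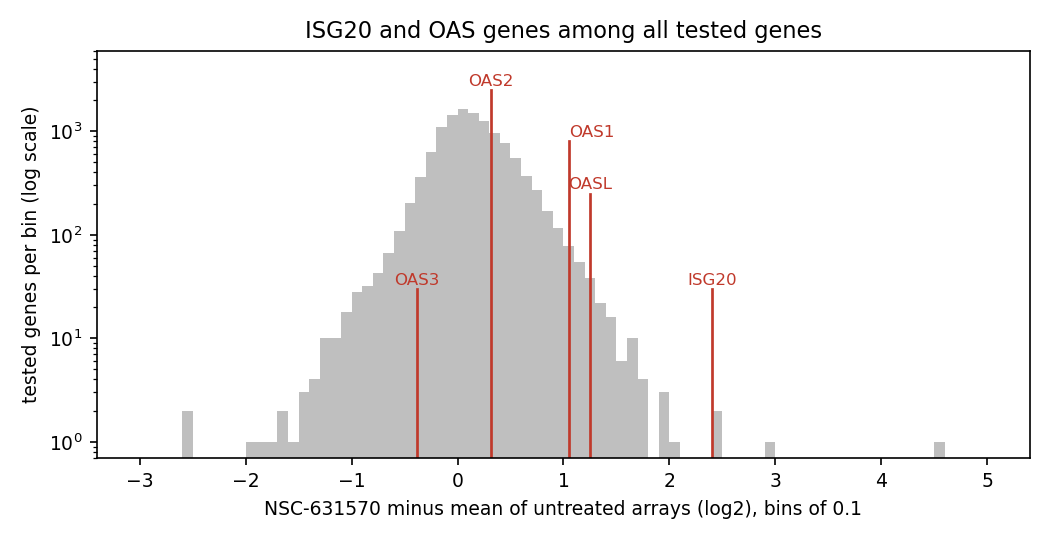
Histogram of the log2 difference between the treated array and the mean of the untreated arrays for 11932 tested genes, in bins of 0.1 with a logarithmic count axis, and the 5 members on their brightest probe sets. On these probe sets ISG20 lies in the upper tail at 2.41, OASL and OAS1 on its shoulder, and OAS2 and OAS3 within the bulk. The other OAS2 probe sets and those shared by OAS2 and OAS3 had larger differences and are not drawn.

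Profiles were compared by the Euclidean distance between the values of the 3 arrays, centred on the untreated mean. The nearest gene to ISG20 was CYP1B1, a cytochrome P450 and known target of the aryl hydrocarbon receptor (distance 0.09), which read 8.93 in the treated array, against 6.55 and 6.47 in the untreated arrays. After it came ALDH3A1, an aldehyde dehydrogenase (0.43), SPOCK1, a matrix proteoglycan (0.47), CTHRC1, a secreted collagen-repeat protein (0.63), and S100P, a calcium-binding protein (0.70). OASL, the member closest to ISG20, was at 1.16, and the closest pair of members was OAS1 and OASL at 0.41. The mean profile of the 4 OAS family genes was nearest to CMTM8 and ACTA2 (both at a distance of 0.01), followed by GFOD2, COX6B1 and TM4SF1, the last at 0.012. That mean of the brightest probe sets stood at a difference of 0.56. Its members ran from −0.38 to 1.25 on those probe sets, with OAS3 and OASL 1.71 apart. The mean is thus the profile of no single member. Tested genes lie denser there than around ISG20, so its distances are not to be set against those of ISG20. Each distance rests on 3 arrays and carries no test. It holds only the difference from the untreated mean and the gap between the untreated arrays. ISG20 was chosen for its large difference, so its nearest genes are others with large differences, and nothing further is read from them.

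Genes beside the members on the chromosome were read from the order in RefSeq. Around ISG20 on chromosome 15 lay AEN, itself an exonuclease of the same family, at a difference of 0.25, DET1 (0.29), ACAN (0.09) and HAPLN3 (0.28). Around the chromosome 12 cluster of OAS1, OAS3 and OAS2 lay RPH3A (0.02), PTPN11 (0.04, its 2 other probe sets past the filter from −0.89 to −0.60), CFAP73 (0.12) and DDX54 (0.17, its 3 others at a median of −0.28). Around OASL lay SPPL3 (−0.07), ACADS (0.55), the ATP-gated channel gene P2RX4 (0.75, its other probe set 0.10) and CAMKK2 (0.31, its 2 other probe sets at a median of −1.13). Of these 12 nearest tested genes none passed the limma threshold after adjustment, and 2, ACADS and P2RX4, were higher at an unadjusted p under 0.05, a share near the 12.2% of all tested genes.

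The other genes of the system were taken as 7 lists with 76 symbols, of which 62 genes were tested. By limma none passed the adjusted threshold, where 0.067% of all tested genes did, and 12 were higher and 3 lower at an unadjusted p under 0.05, where 12.2% and 2.24% of all tested genes were. The treated array was above both untreated arrays in 41 of the 62 and below both in 14, beside 51.6% and 22.5% of all tested genes. These shares also belong beside the counts of each list below. Unless stated otherwise, counts and medians of the lists rest on the brightest probe set of each gene.

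Partners of the 2-5A system had a list median of 0.21 over 3 genes, beside 0.12 for all tested genes, or −0.0090 with the mean of the probe sets of each gene. ABCE1, a ribosome recycling factor, read 10.79 in the treated array, against 10.91 and 10.53 in the untreated arrays, between which it lay. PDE12, a phosphodiesterase that breaks down 2-5A, read 10.17 in the treated array, against 10.00 and 9.82 in the untreated ones. Its 2 other probe sets stood at a median difference of −0.20. AKAP7, for which such an activity is known in mouse, read 9.09 in the treated array, against 8.90 and 8.86. None of the 3 passed at an unadjusted p under 0.05.

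Sensors of double-stranded RNA and other nucleic acids were mixed. Of 11 tested, 7 were above both untreated arrays and 3 below both, and the median difference was 0.16, or −0.037 with arrays centred on the median of the tested genes. That median was 0.31 without untreated 1 and 0.013 without untreated 2. DHX58, a helicase of the RIG-I family, read 9.53 in the treated array, against 7.87 and 7.90 in the untreated arrays (limma adjusted p = 0.0683), and its 2 other probe sets differed by a median of 0.81. IFIH1, the sensor MDA5, read 8.80 in the treated array, against 8.01 and 7.60 in the untreated arrays. EIF2AK2, the kinase PKR that like the synthetases is switched on by double-stranded RNA, was below both untreated arrays. It read 9.06 in the treated array, against 10.10 and 9.67 in the untreated arrays, while its other probe set differed by −0.13. MAVS, the adaptor below RIG-I and MDA5, differed by −0.71, and its 5 other probe sets ran from −0.90 to 0.57.

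The exonuclease relatives of ISG20 lay on both sides of the untreated mean. Of 13 tested, 5 were above both untreated arrays and 7 below both, with a median of −0.06 (−0.10 without untreated 1 and −0.02 without untreated 2) and no gene at an unadjusted p under 0.05. ISG20L2, a nucleolar relative, read 10.05 in the treated array, against 10.50 and 10.26 in the untreated arrays. PAN2, the catalytic subunit of a deadenylase, differed by 0.63, REXO5 by 0.60 and the histone mRNA exonuclease ERI1 by −0.26. In PAN2, REXO5 and ERI1 the untreated arrays lay 0.79, 0.49 and 0.40 apart. That was further than the treated array stood from the nearer of them (0.24, 0.36 and −0.06). Other probe sets past the filter differed by −0.59 in ERI1, −0.28 in ERI3, −0.27 in REXO1 and −0.11 in ISG20L2. Their medians were −1.06 in PARN, −0.83 in REXO4, −0.32 in REXO2 and 0.04 in ERI2. The list median of −0.06 thus rests on the brightest probe sets.

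Of 21 tested antiviral genes that act on RNA or nucleotides, 15 were above both untreated arrays and 2 below both, with a median of 0.30. DDX60, a helicase, read 11.39 in the treated array, against 10.12 and 10.00 in the untreated arrays. IFIT1, which binds viral RNA ends, differed by 0.83, and IFIT2 by 0.73, with −0.46 on its other probe set. TRIM25, a ubiquitin ligase of the RIG-I pathway, differed by −0.97 and by −0.76 on its other probe set.

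Upstream of the members, 6 interferon genes were named and none reached the filter, with signals from 3.35 to 5.77 in the treated array and from 3.26 to 5.53 in the untreated ones. Of 9 receptor and kinase genes, 7 were above both untreated arrays and 2 below both on their brightest probe sets, with a median of 0.41. Of all tested genes 51.6% and 22.5% were. Other probe sets past the filter went the other way in JAK1 (0.40, its 2 others from −1.11 to −0.19) and IFNGR1 (0.11, its other −0.85). By median they also did so in IFNAR1 (−0.29, its 3 others 0.08). In IL10RB, JAK2 and IFNAR2 they kept the direction by median (0.22, 0.40 and −0.31). IFNLR1, the specific chain of the interferon lambda receptor, read 8.55 in the treated array, against 7.63 and 7.52 in the untreated arrays. JAK2 differed by 0.76, TYK2 by 0.50 and IFNGR2 by 0.46. In JAK2 and IFNGR2 the untreated arrays lay 0.63 and 0.46 apart, further than the treated array stood above the nearer one (0.44 and 0.23). All 5 tested transcription factor genes were above both untreated arrays on their brightest probe sets, with a median of 0.44, and 2 of the 7 listed were not analysed here. IRF9, the DNA-binding subunit of ISGF3, read 10.78 in the treated array, against 9.73 and 8.57 in the untreated arrays, and its 3 other probe sets differed by a median of 0.57. IRF7 read 9.71 in the treated array, against 8.42 and 8.29 in the untreated ones. IRF2 differed by 0.44. IRF3 differed by 0.25, and its 5 other probe sets past the filter ran from −0.47 to 0.51. IRF1 differed by 0.16, and its 2 other probe sets past the filter had a median of −0.33.

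**Figure D5:**
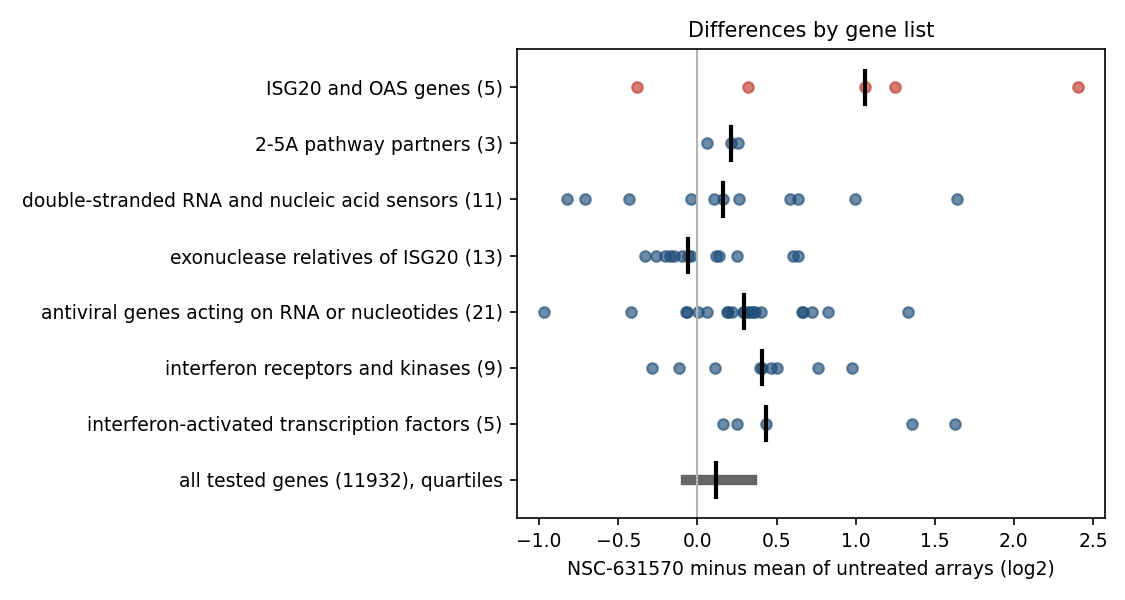
Log2 difference between the treated array and the mean of the untreated arrays for ISG20 and the OAS genes and for 6 lists with tested genes, 1 point per gene and a bar at each median, above the quartiles of all tested genes. On their brightest probe sets the members span −0.38 to 2.41, and the exonuclease relatives of ISG20 centre at −0.06.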

How the data were processed

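The authors deposited a log2 signal for every probe set on each array, and per the submitters' processing notes used Affymetrix Expression Console. The sources used here give no version, algorithm or normalization for it. The log2 scale was inferred from the range of the values, 2.98 to 14.95 in the treated array. Probe sets were named through the platform annotation: 44988 named 1 gene, 1832 several and 2473 none here, beside 102 controls. Each gene was represented by its brightest probe set, and 11932 genes reached the 40th percentile of all probe set means. The treated array was set against the untreated pair with limma 3.58.1 in R 4.3.3, and p-values were adjusted by Benjamini-Hochberg with a threshold of 0.05. Only 1 degree of freedom, from the untreated pair, is left for the residual variance, which was moderated by a prior SD of 0.19 with 6.9 degrees of freedom, and the fit takes the spread of the untreated pair for the treated array too. On simulated arrays of 11932 genes for this comparison, limma recovered 15 of 50 genes changed 2-fold, 49 of 50 changed 4-fold and all 50 changed 8- and 16-fold, and called 18 unchanged genes. The simulated noise was drawn from that same prior, with equal spread in all arrays and no array-wide shift. The simulation therefore cannot show how limma does where the real arrays depart from this. The members and lists were chosen with earlier results of these data known. Named genes were all members, all partners of the 2-5A system, up to 4 genes per other list with the largest difference, the 5 nearest profiles and the nearest tested neighbours. Other normalizations, centrings, filters, variance priors, probe set rules and single untreated arrays were tried. Protein sequences were planned but not used here. Only 3 arrays limit the precision.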

Additional observations from a re-analysis of the deposited data

How the results depend on the processing

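No paired analysis was possible because the treated group has 1 array and its title pairs it with neither untreated array. No pseudocount was tried, since the values were log2 already. Genes past the limma threshold numbered 8, but 4 after quantile normalization, 136 with arrays centred on the median of all probe sets, 50 with arrays centred on that of the tested genes, 3 with the mean of the probe sets of a gene, 4 without a filter, 21 with the filter at the 60th percentile and 31 with an intensity trend. Genes at least 2-fold beyond both untreated arrays numbered 133, but 87 with the filter at the 60th percentile, 844 at 1.5-fold, and 382 to 385 with 1 untreated array left out. Of the 133, 105 were higher and 28 lower, but the split was 44 and 59 when centred on the tested genes and 47 and 61 with the mean of the probe sets. ISG20 differed by 2.45 with arrays centred on the median of all probe sets and by 2.21 with arrays centred on that of the tested genes. OASL differed by 1.27 after quantile normalization and by 1.29 and 1.06 with those centrings. OAS2 differed by 0.12 when centred on the tested genes and by 0.95 with the mean of its probe sets. Chosen after the data were seen, the mean of its 2 other probe sets past the filter, 1 of them only through the treated array, gave 1.68, and the mean of the probe sets naming OAS2 and OAS3 gave 0.96, which turned the sign of OAS3. Centred on the tested genes, the list medians were 0.013 for 2-5A partners, −0.037 for sensors, −0.26 for exonuclease relatives, 0.10 for antiviral genes, 0.21 for receptors and kinases and 0.24 for transcription factors. With the mean of the probe sets they were −0.0090 for 2-5A partners, −0.20 for exonuclease relatives and 0.31 for receptors and kinases. Among the sensors 1 gene passed the limma threshold with either centring, with the filter at the 60th percentile and with an intensity trend. Among antiviral genes and transcription factors 1 each passed when arrays were centred on all probe sets. Leaving out either untreated array turned the sign of no member, by 1 array against 1 and without a test. Depth does not apply to arrays, and signal over background was not measured here.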
